A study of Rattus norvegicus with 8 samples.

Results

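The genes described here make up the antioxidant, glutathione and NRF2 target set of the kidney. They are 40 genes listed by symbol, ordered below by what their products do, and 38 of them were found among the 15037 named genes of the arrays, each with 1 probe set. Pgd, of the pentose phosphate pathway, and Gsto1, an omega class transferase, were not analysed here. All 38 passed the filter on low values, which asked that the highest of the 8 values reach the median of the whole table. The study was about renal stones and phlorizin, which blocks sodium-glucose cotransport, in male Sprague-Dawley rats of 10 weeks. There were 4 treatments. EG stands for ethylene glycol with alfacalcidol, given for 2 weeks to form calcium oxalate stones. EG with phlorizin had both, phlorizin had the inhibitor without EG, and the control had neither. Each treatment gave 1 Clariom S array of cortex and 1 of outer medulla, 8 in all, and a difference of 1 array against another has no p-value. The sources used here give no dose and do not say whether RNA of several animals was pooled. A chemical stone model of this kind also injures the tubule through oxalate itself, and it is not a model of spontaneous stones.

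NRF2, encoded by Nfe2l2, is a transcription factor that KEAP1 marks for degradation in unstressed cells. Oxidants and electrophiles modify KEAP1, NRF2 then accumulates, pairs with small MAF proteins and binds the antioxidant response element of its target genes. Those targets make and recycle glutathione, conjugate electrophiles to it, and supply the thioredoxin and peroxiredoxin systems that reduce peroxides. The proximal tubule is rich in these enzymes, and oxalate crystals are known to raise oxidant production in it.

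The core of the antioxidant response element, TGACNNNGC, was searched on both strands in the 250 bases before the gene start in RefSeq promoters of the rat assembly GRCr8. Windows were available for 35 of the 40 genes, and 6 of them, or 17.1%, held the core, against 11.02% of all 27457 genes with a window. The 6 stretches are shown since they are where a known NRF2 binding motif lies next to a measured gene. Each is printed on the strand on which the core reads TGAC, with the core in capitals.
Gpx2: agaaTGACTTAGCgaaaccaggtaccca
Gclm: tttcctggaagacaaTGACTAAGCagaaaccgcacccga
Txnrd1: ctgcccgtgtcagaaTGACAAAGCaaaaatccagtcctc
Prdx1: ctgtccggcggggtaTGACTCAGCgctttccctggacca
Gstp1: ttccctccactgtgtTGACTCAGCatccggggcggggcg
Sod2: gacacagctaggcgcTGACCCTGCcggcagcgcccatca
They lie at chr6:101230034-101230061 for Gpx2, chr2:213031948-213031986 for Gclm, chr7:22755959-22755997 for one of the start sites of Txnrd1, chr5:135383756-135383794 for Prdx1, chr1:210769743-210769781 for Gstp1 and chr1:50050180-50050218 for Sod2. The core begins 13 bases before the gene start in Gpx2, 35 in Sod2, 61 in Gstp1, 78 in Txnrd1, 135 in Prdx1 and 172 in Gclm. In Prdx1 and Gstp1 it overlaps TGANTCA, the motif of AP-1 factors. A match describes the letters only. The EG values of these 6 genes, given below with their groups, had no common direction.

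All values are on the log2 scale of RMA, on which a difference of 1 is 2-fold. Background probes averaged 5.53 to 5.68 per array, so values near or under 6 are hardly above background, and values near the table's highest, 19.7, can be compressed. The zones fit their labels. Slc5a2, a marker of the first proximal segments, was 4.996 to 6.02 in outer medulla and 15.73 to 16.46 in cortex, and Slc12a1, a marker of the thick ascending limb, was 16.89 to 17.97 in outer medulla and 12.01 to 13.54 in cortex. The cortex EG array had the lowest poly-A spike controls, at 6.42 against 7.46 to 8.23 on the other arrays. Every cortex value with EG alone rests on that array, and the part of the spike level in those values was not tested.

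Most of the set was cortical. Of the 38 genes, 23 fell in outer medulla relative to the cortex and 4 rose, at an adjusted p under 0.05 in limma over 13170 probe sets with the treatment as a block. Over all tested probe sets, 18.8% fell and 32.7% rose, which is 2480 and 4301, and with each array centred on its median 3011 fell and 3453 rose. The median zone difference of the 38 was -1.24, against 0.17 over all probe sets, a shift that centring each array would move to 0.05. All 5 of catalase and the glutathione peroxidases fell, as did 6 of the 10 glutathione S-transferases, 2 of the 3 superoxide dismutases, 3 of the 6 peroxiredoxins and 2 of the 5 genes of glutathione synthesis and recycling. In bulk tissue, fewer cells of a type and less RNA per cell cannot be told apart.

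Nox4, the NADPH oxidase of the tubule that releases hydrogen peroxide, averaged 7.17 ± 1.55 in outer medulla against 15.003 ± 0.94 in cortex (SD, n = 4 treatments). It fell by 7.84 in outer medulla (SE 0.84, limma adjusted p = 0.00052). Gpx3, the secreted glutathione peroxidase that the proximal tubule releases into plasma, averaged 12.68 ± 0.98 in outer medulla against 19.15 ± 0.37 in cortex and fell by 6.47 (SE 0.45, limma adjusted p = 0.000107). Its cortex values lie near the top of the scale. Gsta1, an alpha class transferase, averaged 11.36 ± 0.42 in outer medulla against 16.71 ± 0.83 in cortex, a fall by 5.35. Sod3, the extracellular superoxide dismutase, fell by 3.93, Ggt1, which cleaves glutathione at the brush border, by 3.49, and Gstm1 by 2.95. For all 6 genes every outer medulla array lay below every cortex array. The same held for 16 of the 38, while 14.3% of all probe sets were separated in that direction.

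The 4 genes that rose in outer medulla were Nqo1, a quinone reductase and standard NRF2 target, Mgst2, a microsomal transferase that makes leukotriene C4, Gstm2 and Prdx2, a cytosolic peroxiredoxin. Nqo1 averaged 8.63 ± 0.60 in outer medulla against 6.60 ± 0.54 in cortex, where it was near background, and rose by 2.03 (SE 0.25, limma adjusted p = 0.000943). Mgst2 rose by 1.37, Gstm2 by 1.06 and Prdx2 by 0.61, each in all 4 treatments. For Nqo1 and Prdx2, 2 of the 38, every outer medulla array lay above every cortex array, where 24.7% of all probe sets were so separated. Nqo1 passed the filter on low values through its 4 outer medulla arrays alone, and Mgst2 through its outer medulla EG array alone. Their counts as higher in outer medulla follow in part from the filter. Nfe2l2 itself fell by 0.46 (SE 0.16, adjusted p = 0.0491 by limma), and without the arrays of the control, of phlorizin or of EG with phlorizin that call was lost (0.067, 0.18 and 0.178 by limma), as it was without the filter on low values (0.0689 by limma). Gstt1, a theta class transferase, fell by 1.84, and without the EG with phlorizin arrays its adjusted p was 0.0567 by limma. The 11 genes that did not pass were Keap1, Gclc, Gclm, Gsr, Taldo1, Srxn1, Prdx4, Prdx5, Sod2, Gstp1 and Gstm3. Without the EG arrays Gclc (-2.55), Gclm (-1.42), Gsr (-0.46) and Taldo1 (-0.70) also fell, with limma adjusted p of 0.00024, 0.000266, 0.0351 and 0.00982. Without the EG with phlorizin arrays Prdx5 rose by 0.77 (limma adjusted p = 0.0318).

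**Figure D1:**
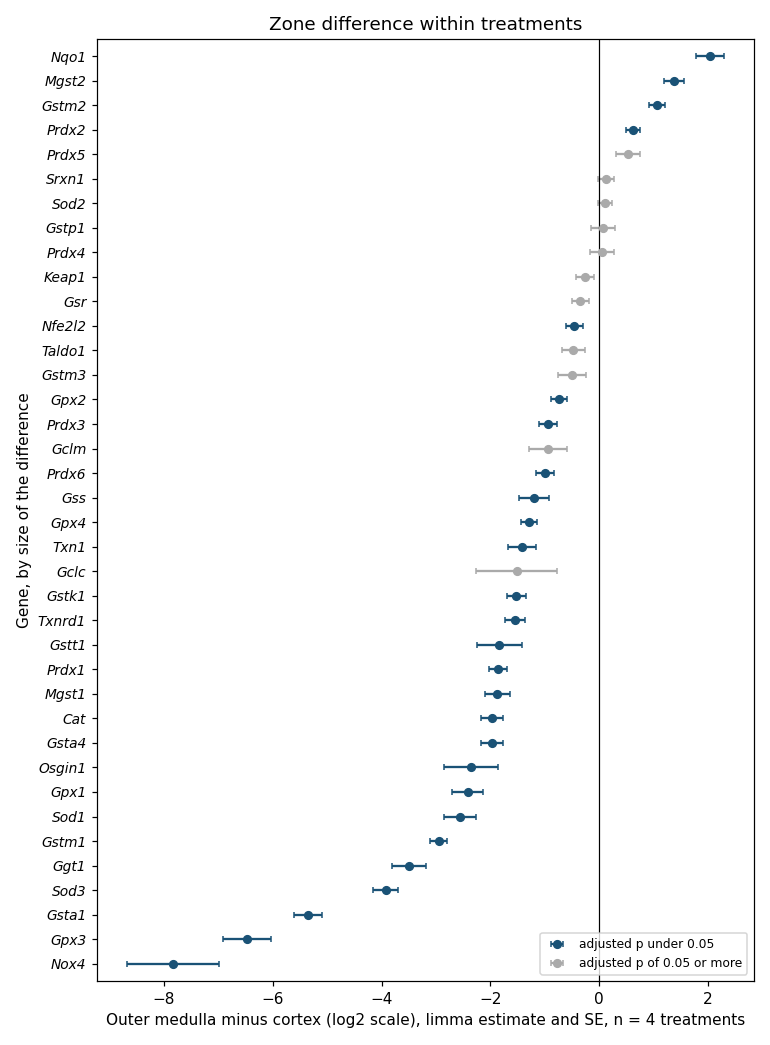
Outer medulla minus cortex for the 38 genes on the log2 scale, as the limma estimate with its standard error over 4 treatments. Of the 38 points, 23 lie below 0 and 4 above 0 with an adjusted p under 0.05, and Nox4, Gpx3 and Gsta1 stand furthest to the left.

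EG went with lower values of much of the set in cortex and with divided values in outer medulla. On the cortex arrays 14 of 38 genes were lower with EG than in the control by 1 or more, and 4 were higher by that size, where 12.7% and 9.66% of all tested probe sets were. On the outer medulla arrays 5 genes were lower and 5 higher by that size, against 9.68% and 8.59%. The median difference was -0.62 in cortex and 0.01 in outer medulla, against -0.07 and -0.05 over all probe sets. In cortex 27 of the 38 lay below 0 and in outer medulla 19, where 54.1% and 53.3% of all probe sets did. In both zones 18 lay below 0 and 10 above 0, where 39% and 31.6% of all probe sets did. By the same size in both zones, 5 genes were lower (Gss, Gstm2, Gstk1, Prdx3 and Prdx5) and 2 higher (Gpx2 and Mgst2), where 4.47% and 4.9% of all probe sets were. Mgst2 passed the filter through its outer medulla EG array alone, and Gpx2 through the 4 arrays with EG. Gstm3, among the 4 higher in cortex, passed through its cortex EG and cortex phlorizin arrays alone. The counts of these genes as higher follow in part from the filter, and with the filter on the mean Mgst2 drops out of those higher in both zones. With each array centred on its median, or with quantile normalization, 2 were lower in both zones, since Prdx3, Prdx5 and Gstk1 came to between -0.87 and -0.99 in cortex.

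**Figure D2:**
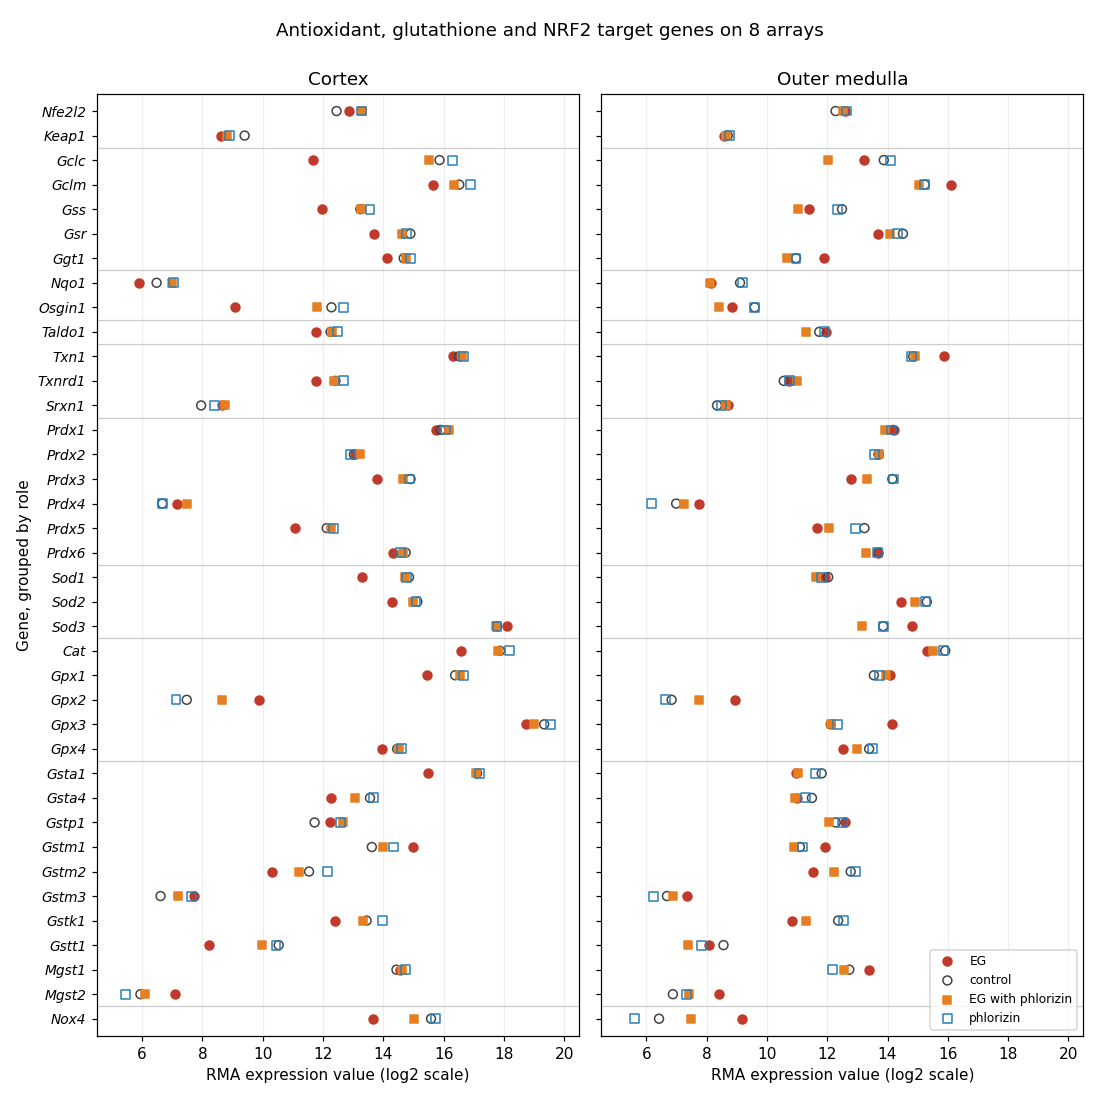
RMA values on the log2 scale of the 38 genes on the 4 cortex arrays and the 4 outer medulla arrays, with 1 symbol per array and genes grouped by role. In cortex the EG array stands apart to the left for Gclc, Osgin1 and Gstt1, and to the right for Gpx2.

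The regulators differed by less than 1. Nfe2l2 in cortex was 12.87 with EG, 13.29 with EG and phlorizin and 13.27 with phlorizin, against 12.45 in the control. In outer medulla it was 12.60 with EG, 12.53 with EG and phlorizin and 12.63 with phlorizin, against 12.27 in the control, so that the control array was lowest in both zones. Keap1 in cortex was 8.62 with EG, 8.82 with EG and phlorizin and 8.88 with phlorizin, against 9.40 in the control, and in outer medulla it lay within 8.58 to 8.77.

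Glutathione is made by glutamate-cysteine ligase, whose catalytic subunit is GCLC and whose modifier is GCLM, and then by glutathione synthetase, GSS. Gclc in cortex was 11.65 with EG, 15.52 with EG and phlorizin and 16.28 with phlorizin, against 15.86 in the control. The EG array stood alone, 18.5-fold lower than the control, which is a difference of -4.21 and the lowest of the set. In outer medulla Gclc was 13.22 with EG, 12.04 with EG and phlorizin and 14.11 with phlorizin, against 13.88 in the control, with both EG arrays below both others and EG with phlorizin the lowest. Its partner Gclm, which holds the core shown above, had another pattern. Gclm in cortex was 15.64 with EG, 16.36 with EG and phlorizin and 16.88 with phlorizin, against 16.52 in the control, and in outer medulla 16.11 with EG, 15.06 with EG and phlorizin and 15.21 with phlorizin, against 15.23 in the control. EG minus control was thus -0.87 in cortex and 0.88 in outer medulla.

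Gss in cortex was 11.98 with EG, 13.25 with EG and phlorizin and 13.56 with phlorizin, against 13.24 in the control, and in outer medulla 11.39 with EG, 11.03 with EG and phlorizin and 12.33 with phlorizin, against 12.49 in the control. In outer medulla both EG arrays lay below both others, and in cortex the EG array was lowest. Gsr, which returns oxidised glutathione to its reduced form, had cortex values of 13.70 with EG, 14.63 with EG and phlorizin and 14.78 with phlorizin, against 14.90 in the control. In outer medulla it was 13.69 with EG, 14.09 with EG and phlorizin and 14.32 with phlorizin, against 14.51 in the control, again with EG lowest. Ggt1 had cortex values of 14.11 with EG, 14.75 with EG and phlorizin and 14.91 with phlorizin, against 14.67 in the control, and outer medulla values of 11.89 with EG, 10.66 with EG and phlorizin and 10.96 with phlorizin, against 10.96 in the control, where the EG array alone stood high.

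Nqo1 and Osgin1, a growth inhibitor induced by oxidants, are NRF2 targets of other functions. Osgin1 in cortex was 9.09 with EG, 11.80 with EG and phlorizin and 12.66 with phlorizin, against 12.28 in the control. EG minus control was -3.19, or 9.14-fold lower, the second largest of the set after Gclc. In outer medulla Osgin1 was 8.83 with EG, 8.39 with EG and phlorizin and 9.60 with phlorizin, against 9.59 in the control, both EG arrays being lower than both others. Nqo1 in outer medulla was 8.13 with EG, 8.09 with EG and phlorizin and 9.18 with phlorizin, against 9.11 in the control, which divides the arrays in the same way. In cortex Nqo1 was 5.88 with EG, 6.99 with EG and phlorizin and 7.04 with phlorizin, against 6.48 in the control, with the EG array near background. Taldo1, a transaldolase of the pentose phosphate pathway that feeds NADPH supply, differed by -0.47 and 0.23 between EG and control in cortex and outer medulla.

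**Figure D3:**
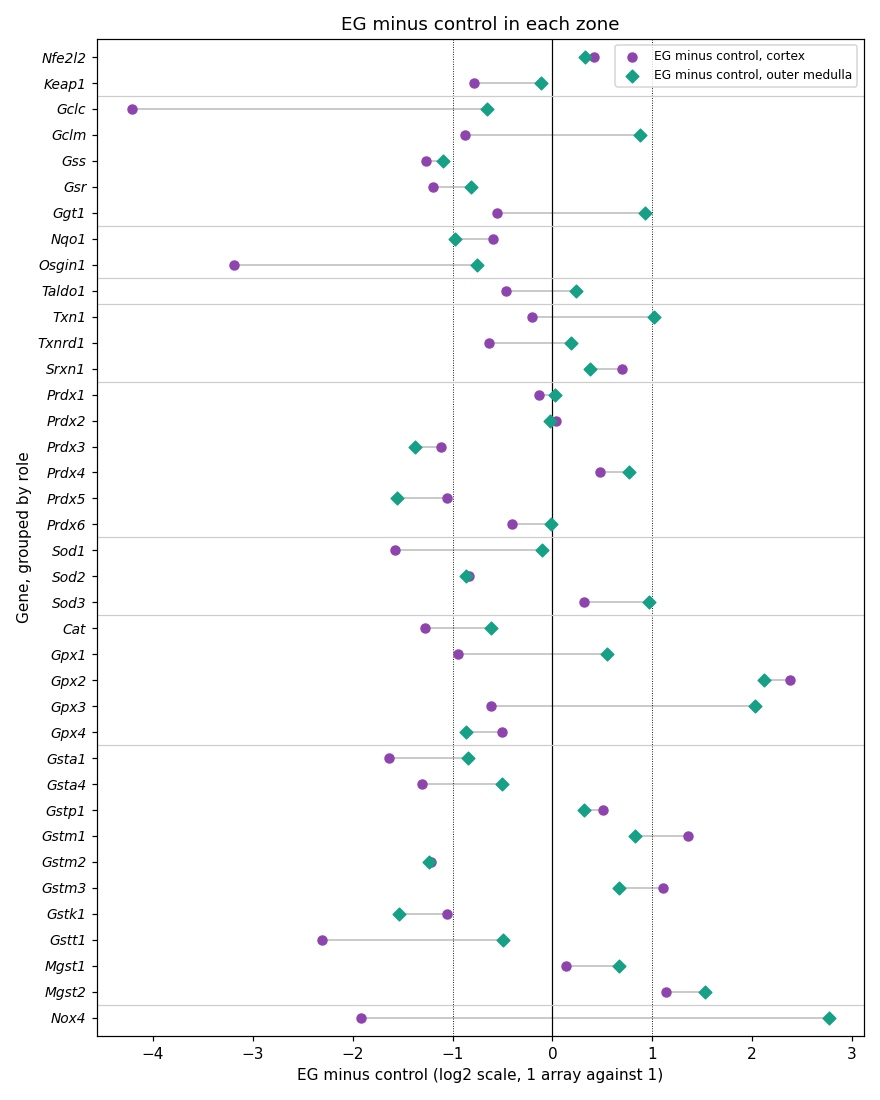
EG minus control on the log2 scale for each of the 38 genes, cortex and outer medulla, 1 array against 1, with dotted lines at differences of 1. Gclc (-4.21) and Osgin1 (-3.19) stand lowest in cortex, and the zones differ most for Nox4 (-1.92 and 2.77).

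Thioredoxin, TXN1, is kept reduced by thioredoxin reductase, TXNRD1, and sulfiredoxin, SRXN1, repairs overoxidised peroxiredoxins. Txn1 in outer medulla was 15.86 with EG, 14.92 with EG and phlorizin and 14.78 with phlorizin, against 14.85 in the control, so the EG array was about 1 above the rest. In cortex it was 16.30 with EG, 16.62 with EG and phlorizin and 16.65 with phlorizin, against 16.51 in the control. Txnrd1 in cortex was 11.78 with EG, 12.36 with EG and phlorizin and 12.67 with phlorizin, against 12.41 in the control, and in outer medulla 10.74 with EG, 10.98 with EG and phlorizin and 10.75 with phlorizin, against 10.56 in the control. Srxn1 had cortex values of 8.65 with EG, 8.73 with EG and phlorizin and 8.40 with phlorizin, against 7.96 in the control. The control array was lowest there, and also in outer medulla, where the range was 8.34 to 8.72.

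Among the peroxiredoxins, which reduce peroxides with thioredoxin, the mitochondrial members stood apart. Prdx3, the peroxiredoxin of the mitochondrial matrix, had cortex values of 13.79 with EG, 14.66 with EG and phlorizin and 14.88 with phlorizin, against 14.90 in the control, and outer medulla values of 12.79 with EG, 13.32 with EG and phlorizin and 14.18 with phlorizin, against 14.16 in the control. Prdx5, found in mitochondria and peroxisomes, had cortex values of 11.07 with EG, 12.28 with EG and phlorizin and 12.35 with phlorizin, against 12.12 in the control. In outer medulla Prdx5 was 11.68 with EG, 12.06 with EG and phlorizin and 12.95 with phlorizin, against 13.23 in the control. For both genes the EG array was the lowest of its zone and, in outer medulla, EG with phlorizin the next. Prdx4, the peroxiredoxin of the endoplasmic reticulum, was higher with EG in both arms, by 0.80 with and 0.47 without phlorizin on the cortex arrays and by 1.07 with and 0.77 without it on the outer medulla arrays. The cytosolic members had the smallest EG differences of the family without phlorizin. With phlorizin this did not hold in cortex, where Prdx2 differed by 0.33, Prdx3 by -0.22 and Prdx5 by -0.07. Prdx1, with its core overlapping an AP-1 motif, had cortex values of 15.76 with EG, 16.18 with EG and phlorizin and 16.05 with phlorizin, against 15.90 in the control, and outer medulla values of 14.21 with EG, 13.92 with EG and phlorizin and 14.13 with phlorizin, against 14.18 in the control. Prdx2 had cortex values of 13.06 with EG, 13.23 with EG and phlorizin and 12.90 with phlorizin, against 13.02 in the control, and outer medulla values of 13.68 with EG, 13.71 with EG and phlorizin and 13.56 with phlorizin, against 13.71 in the control. Prdx6, which also has phospholipase activity, had cortex values of 14.33 with EG, 14.65 with EG and phlorizin and 14.57 with phlorizin, against 14.74 in the control, and outer medulla values of 13.67 with EG, 13.28 with EG and phlorizin and 13.67 with phlorizin, against 13.69 in the control. EG minus control stayed within 0.5 for these 3 genes in both zones.

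Superoxide dismutases turn superoxide into hydrogen peroxide, SOD1 in the cytosol, SOD2 in mitochondria and SOD3 outside the cell. Sod1 in cortex was 13.28 with EG, 14.71 with EG and phlorizin and 14.77 with phlorizin, against 14.85 in the control, with the EG array alone low. On the outer medulla arrays it was 11.92 with EG, 11.62 with EG and phlorizin and 11.80 with phlorizin, against 12.03 in the control, a narrow range. Sod2, with a core 35 bases before its start, differed by -0.84 in cortex and -0.86 in outer medulla, and the EG array was lowest in both zones. Sod3 in outer medulla was 14.82 with EG, 13.14 with EG and phlorizin and 13.86 with phlorizin, against 13.85 in the control. The EG array was highest and EG with phlorizin lowest, while in cortex Sod3 was 18.09 with EG, 17.75 with EG and phlorizin and 17.77 with phlorizin, against 17.77 in the control.

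Catalase and the glutathione peroxidases remove hydrogen peroxide and lipid peroxides. Gpx2, best known from the gut epithelium, was the gene of the set with the largest higher EG difference in cortex. It had cortex values of 9.86 with EG, 8.64 with EG and phlorizin and 7.12 with phlorizin, against 7.48 in the control, and outer medulla values of 8.95 with EG, 7.73 with EG and phlorizin and 6.65 with phlorizin, against 6.84 in the control. EG was highest and EG with phlorizin second in both zones, and EG minus control was 2.38 and 2.11, or 5.21-fold and 4.33-fold. Its core stands nearest to the gene start of the 6 shown, and whether the core has a part in these values was not tested.

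Gpx3 went apart by zone. In outer medulla it was 14.15 with EG, 12.12 with EG and phlorizin and 12.33 with phlorizin, against 12.12 in the control, with the EG array alone high, and in cortex 18.72 with EG, 19.01 with EG and phlorizin and 19.55 with phlorizin, against 19.33 in the control. Gpx1, the cytosolic peroxidase, had cortex values of 15.44 with EG, 16.55 with EG and phlorizin and 16.65 with phlorizin, against 16.38 in the control, and outer medulla values of 14.10 with EG, 13.95 with EG and phlorizin and 13.74 with phlorizin, against 13.55 in the control. Cat, the peroxisomal catalase, had cortex values of 16.59 with EG, 17.79 with EG and phlorizin and 18.19 with phlorizin, against 17.87 in the control. Its outer medulla values were 15.29 with EG, 15.49 with EG and phlorizin and 15.86 with phlorizin, against 15.91 in the control, so EG was lowest in both zones. Gpx4, which reduces lipid peroxides in membranes, had cortex values of 13.96 with EG, 14.52 with EG and phlorizin and 14.60 with phlorizin, against 14.46 in the control, and outer medulla values of 12.53 with EG, 12.99 with EG and phlorizin and 13.49 with phlorizin, against 13.39 in the control, with EG lowest in both zones too.

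Glutathione S-transferases join glutathione to electrophiles, and their classes divided. Several have close relatives, and the sources used here do not say whether the probe sets tell these apart, so single values are uncertain. The alpha class Gsta1 had cortex values of 15.47 with EG, 17.07 with EG and phlorizin and 17.19 with phlorizin, against 17.11 in the control, and Gsta4, which handles 4-hydroxynonenal, a product of lipid peroxidation, was 12.25 with EG, 13.07 with EG and phlorizin and 13.68 with phlorizin, against 13.56 in the control. Gstt1 in cortex was 8.22 with EG, 9.98 with EG and phlorizin and 10.44 with phlorizin, against 10.53 in the control. For these 3 genes the cortex EG array was the lowest. On the outer medulla arrays Gsta1 was 10.97 with EG, 11.04 with EG and phlorizin and 11.60 with phlorizin, against 11.81 in the control. Gsta4 was 10.99 with EG, 10.92 with EG and phlorizin and 11.28 with phlorizin, against 11.49 in the control, and Gstt1 8.07 with EG, 7.36 with EG and phlorizin and 7.83 with phlorizin, against 8.56 in the control. EG minus control there was -0.84, -0.50 and -0.49, each nearer to 0 than in cortex.

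Gstk1, the kappa class enzyme of mitochondria and peroxisomes, had cortex values of 12.39 with EG, 13.32 with EG and phlorizin and 13.96 with phlorizin, against 13.44 in the control, and outer medulla values of 10.83 with EG, 11.31 with EG and phlorizin and 12.53 with phlorizin, against 12.36 in the control. Gstm2, of the mu class, had cortex values of 10.32 with EG, 11.22 with EG and phlorizin and 12.16 with phlorizin, against 11.53 in the control, and outer medulla values of 11.54 with EG, 12.23 with EG and phlorizin and 12.94 with phlorizin, against 12.78 in the control. For both genes both EG arrays lay below both others in each zone. Gstm1 went the other way with EG alone, with cortex values of 14.97 with EG, 13.999 with EG and phlorizin and 14.33 with phlorizin, against 13.62 in the control, and outer medulla values of 11.92 with EG, 10.91 with EG and phlorizin and 11.18 with phlorizin, against 11.09 in the control. Both zones had EG as the highest Gstm1 array. Gstm3 had cortex values of 7.72 with EG, 7.20 with EG and phlorizin and 7.64 with phlorizin, against 6.61 in the control, where the control array alone was low, and outer medulla values of 7.36 with EG, 6.90 with EG and phlorizin and 6.22 with phlorizin, against 6.68 in the control. Mgst2 had cortex values of 7.08 with EG, 6.09 with EG and phlorizin and 5.44 with phlorizin, against 5.94 in the control, near background outside EG, and outer medulla values of 8.40 with EG, 7.42 with EG and phlorizin and 7.32 with phlorizin, against 6.88 in the control. Gstp1, the pi class enzyme whose core overlaps an AP-1 motif, differed by 0.50 and 0.32. Mgst1, a microsomal transferase, had cortex values of 14.57 with EG, 14.61 with EG and phlorizin and 14.72 with phlorizin, against 14.44 in the control, and outer medulla values of 13.39 with EG, 12.55 with EG and phlorizin and 12.18 with phlorizin, against 12.73 in the control.

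Nox4 makes oxidant rather than removing it. In cortex Nox4 was 13.67 with EG, 15.02 with EG and phlorizin and 15.74 with phlorizin, against 15.58 in the control, and in outer medulla 9.19 with EG, 7.47 with EG and phlorizin and 5.59 with phlorizin, against 6.42 in the control, where the lowest values were near background. With EG the zones lay nearer to each other than in the control. EG minus control was -1.92 in cortex and 2.77 in outer medulla, the highest value of the set. Under phlorizin the same contrast was -0.72 and 1.87.

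**Figure D4:**
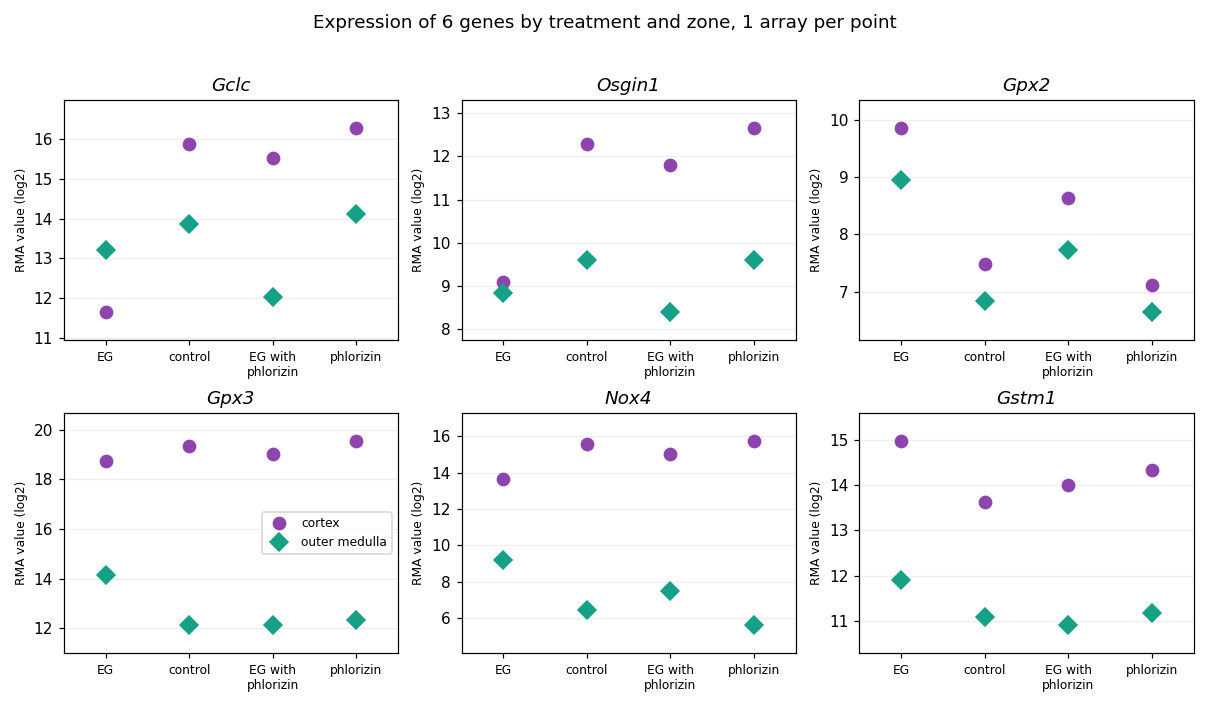
RMA values of Gclc, Osgin1, Gpx2, Gpx3, Nox4 and Gstm1 by treatment, 6 genes picked after their values were seen, with 1 array per point, circles for cortex and diamonds for outer medulla. The cortex EG array is lowest of its zone for Gclc and Osgin1, the EG arrays are highest for Gpx2, and Nox4 and Gpx3 are higher with EG than in the control on the outer medulla arrays and lower on the cortex arrays.

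Replication over both arms was tested with limma on 4 treatment profiles, each the mean of both zones, with EG and phlorizin as terms and 1 residual degree of freedom. The residual is how far the EG difference departs between the arms with and without phlorizin, so p-values do not measure the spread between animals. For EG 0 of the 38 genes passed, while 0.038% of all 13170 probe sets did, and 15 of the 38 had an unadjusted p under 0.05, against 22.7% of all. Of those 15, 12 were lower and 3 higher. Gclc (-1.93, SE 0.29) and Gpx2 (1.77, SE 0.28) came nearest, both with an adjusted p of 0.0771 by limma. Osgin1 (-1.50), Gstk1 (-1.11), Gstm2 (-1.03) and Gss (-0.99) followed, with limma adjusted p of 0.0832, 0.0853, 0.092 and 0.0935. With all 23188 probe sets tested, Gclc, Osgin1 and Gstk1 fell and Gpx2 rose (limma adjusted p of 0.0244, 0.036, 0.0424 and 0.0266), among 401 probe sets that rose and 232 that fell. With the outer medulla arrays alone, Nox4 rose by 2.32 and Gstk1 fell by 1.38 (limma adjusted p of 0.0329 and 0.0484), among 235 that rose and 118 that fell. With 8 arrays fitted and a random block for treatment, Gpx2 and Prdx4 rose and Gss, Gstk1, Gstm2 and Prdx3 fell, with limma adjusted p from 0.0141 to 0.0428, among 830 that rose and 862 that fell. The within-block correlation was estimated at -0.10, so that fit counted both zones of a treatment as separate, though they can share animals. Its p-values can therefore be too small. Prdx4 passed the filter through its outer medulla EG array alone, its other 7 values being at most 7.49. Gpx2 passed it through its 4 arrays with EG alone, its other values being at most 7.48. That these 2 genes were tested as higher with EG follows in part from the filter.

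Under phlorizin the EG differences of the set were smaller in cortex. EG with phlorizin minus phlorizin had a median of -0.12 in cortex and -0.29 in outer medulla, against -0.05 and -0.02 over all probe sets. In cortex 0 of 38 genes were lower by 1 or more and Gpx2 alone was higher (1.52), where 1.55% and 2.43% of all probe sets were. On the outer medulla arrays 5 genes were lower by that size, namely Gclc (-2.07), Gss (-1.30), Gstk1 (-1.22), Osgin1 (-1.20) and Nqo1 (-1.09), and 3 were higher, namely Nox4 (1.87), Gpx2 (1.09) and Prdx4 (1.07). The shares of all probe sets were 3.01% and 3.66%. In both zones together Gpx2 was the 1 gene higher by that size and 0 were lower, against 0.995% and 0.319%. Gpx2 passed the filter through its 4 arrays with EG alone, and Prdx4 through its outer medulla EG array alone. Their counts as higher follow in part from the filter. In cortex 36 of the 38 had a smaller difference with phlorizin than without it, against 73.6% of all probe sets, and in outer medulla 24 of 38, against 66.3%. Among genes picked for a difference of 1 or more without phlorizin, 18 of 18 in cortex and 9 of 10 in outer medulla had a smaller one with it, and 98.9% and 96.6% of all probe sets picked in that way did, so these counts show nothing particular to the set. The exception in outer medulla was Gss, at -1.30 with and -1.10 without phlorizin. Gclc, which was not among the genes picked there, was at -2.07 with and -0.66 without phlorizin. This change of the EG difference was not tested, as 1 array per group leaves no spread for it.

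**Figure D5:**
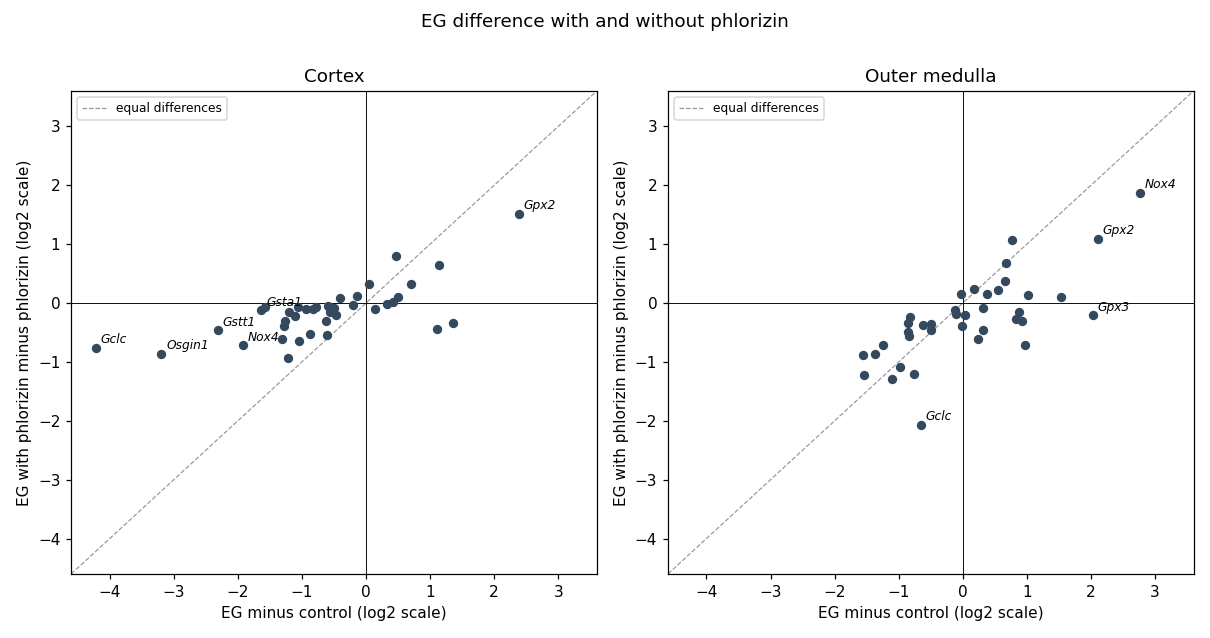
EG with phlorizin minus phlorizin (vertical axis) against EG minus control (horizontal axis) for the 38 genes, both on the log2 scale, on the cortex and outer medulla arrays, with a dashed line of equal differences. In cortex Gclc and Osgin1 lie at -0.76 and -0.86 with phlorizin and at -4.21 and -3.19 without it, and in outer medulla Gclc lies below the line.

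Set against EG alone, EG with phlorizin had higher cortex and lower outer medulla values. In cortex 11 of the 38 genes were higher by 1 or more and 1 was lower, against 7.34% and 6.19% of all probe sets. Gclc (3.87), Osgin1 (2.72), Gstt1 (1.76), Gsta1 (1.59) and Sod1 (1.43) had the largest higher differences. On the outer medulla arrays 8 genes were lower by that size and 0 higher, against 4.34% and 3.35%. There Gpx3 differed by -2.02, Nox4 by -1.72, Sod3 by -1.68, Ggt1 by -1.24 and Gclc by -1.18. Gpx2 was the gene that differed by at least 1 the same way in both zones, at -1.22 and -1.22, so that 1 gene was lower and 0 higher in both, against 1.72% and 1.15%. This comparison and EG minus control share the EG arrays.

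Phlorizin alone went with small differences. Against the control, Gstm3 was 1.03 higher in cortex, and no other gene of the 38 differed by 1 in either zone, against cortex shares over all probe sets of 0.653% for higher and 0.509% for lower values. The outer medulla shares were 0.577% and 0.205%, and 0.0304% and 0.0152% for both zones together. Gstm3 passed the filter on low values through its cortex EG and cortex phlorizin arrays alone. Its count as higher thus follows in part from the filter. Gstp1 (0.85), Nfe2l2 (0.82) and Gstm1 (0.72) followed in cortex, and in outer medulla Nox4 (-0.83) and Prdx4 (-0.81) were the lowest, both at low values there. The median was 0.22 in cortex and -0.01 in outer medulla, against -0.06 and -0.01 over all probe sets. In the limma fit over both EG arms 0 of 38 passed for phlorizin, as did 0% of all probe sets, and 3 of the 38 had an unadjusted p under 0.05, against 3.55% of all.

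The zones went opposite ways for part of the set. With EG 9 of the 38 genes were above 0 in outer medulla and below 0 in cortex, against 15.1% of all probe sets, and in both phlorizin arms 4 were, against 5.44%. Of these 4, Nox4 had the largest zone difference of its EG difference, 3.64 (SE 0.54), with a limma adjusted p of 0.196. That test, which was chosen after the values were seen, called 0 of 38 genes and 0% of all probe sets, with an unadjusted p under 0.05 for 2 of the 38 and for 12.4% of all.

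Other genes of these pathways were taken from lists of 76, of which 65 were on the array by symbol and 53 passed the filter. For EG 0 of the 53 passed limma in either direction, against 0.038% of all probe sets. At an unadjusted p under 0.05, 15 were lower and 7 higher, where 22.7% of all probe sets passed in either direction. Glutathione transferases and enzymes of its breakdown and cysteine supply had a median of -1.36 on the cortex and -0.84 on the outer medulla arrays, and of 13 such genes 10 were lower by 1 or more in cortex, 4 in outer medulla and the same 4 in both, against 12.7%, 9.68% and 4.47% of all probe sets. Cbs (-3.39 and -2.32) and Cth (-1.80 and -2.28) make cysteine, a building block of glutathione, from homocysteine. Gstz1 (-2.16 and -2.17) is the zeta class transferase of tyrosine breakdown, and Gstm7 (-2.31 and -1.81) another mu class gene. These were the 4 lowest by the zone with the smaller difference. Under phlorizin the same contrast was -0.91 and -1.16 for Cbs, -0.37 and -1.51 for Cth, -1.04 and -1.77 for Gstz1 and -1.41 and -1.72 for Gstm7.

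The 4 highest were Gpx7 (1.64 and 2.18) and Gpx8 (1.55 and 1.53), peroxidases of the endoplasmic reticulum, Cybb (2.34 and 1.59), the phagocyte NADPH oxidase, and Slc7a11 (1.34 and 1.73), the cystine transporter. Under phlorizin the same contrast was 0.14 and 1.34 for Gpx7, -0.06 and 0.10 for Gpx8, 1.10 and 1.33 for Cybb and -0.12 and 0.53 for Slc7a11. Slc7a11 was near background in the control, at 5.56 in cortex. It passed the filter on low values through its outer medulla EG array alone (7.60). Its place among the 4 highest thus follows in part from the filter. Cybb is a macrophage gene. With EG 11 of 11 tested macrophage markers lay above 0 in both zones, where 31.6% of all probe sets did. The part of macrophages in the Cybb values was not tested. The NRF2 target enzymes had a median of -0.36 in cortex and 0.14 in outer medulla. Of 17 such genes 5 were lower and 2 higher by 1 or more in cortex, against 12.7% and 9.66% of all probe sets. In outer medulla 1 was lower and 4 higher, against 9.68% and 8.59%. Slc7a11 was among those higher in each zone and Hmox1 among those higher in outer medulla. Hmox1 passed the filter on low values through arrays with EG alone. The counts of both genes as higher follow in part from the filter. The partners of NRF2 and its degradation (6 tested) had 0 in either direction. Of 14 thioredoxin, glutaredoxin and repair genes 4 were lower and 3 higher in cortex, and 3 lower and 3 higher in outer medulla, against the same shares.

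Markers of cell types moved with these differences, and their part in them was not tested. Sums below add log2 values over all markers of a list on the array, also those that did not pass the filter. A sum is therefore not an amount of RNA, and a ratio of sums is not a fold change. The summed value of 9 markers of the first proximal segments was 143.7 with EG and 152.9 in the cortex control. On the outer medulla arrays it was 67.8 with EG and 68.9 in the control, although the median EG difference of the 9 was 0.41 there, against -0.73 in cortex. For 8 markers of the straight segment the cortex sum was 69.7 with EG, 86.1 with EG and phlorizin and 89.5 with phlorizin, against 86.5 in the control, so that the EG array stood alone as it did for Gclc and Osgin1. Slc7a13, one of them, was 8.46 with EG, 15.23 with EG and phlorizin and 16.37 with phlorizin, against 15.40 in the control there. It had the largest EG difference of the 8 in cortex (-6.94), followed by Slc7a12 (-4.24). The others lay between -2.40 (Slc22a24) and -0.80 (Slc5a1), except Cyp7b1, which was higher (1.43). The outer medulla sum was 70.5 with EG and 69.4 in the control. Its members were split. In outer medulla Slc5a10 (2.11), Cyp7b1 (1.89), Slc5a1 (1.25) and Slc3a1 (0.83) were higher with EG than in the control, and Slc7a12 (-3.31), Slc7a13 (-0.97), Slc22a24 (-0.46) and Slc22a7 (-0.17) were lower. Of the 9 first segment markers 4 lay below 0 in outer medulla and 8 in cortex, where 53.3% and 54.1% of all probe sets did. Those 4 in outer medulla, Slc5a2, Slc5a12, Slc22a8 and Slc22a6, had EG values of 4.82 to 5.93, near background. Slc6a19, which was above 0, was near background there too (5.01). The 8 intercalated cell markers summed to 78.0 with EG, 94.9 with EG and phlorizin and 98.9 with phlorizin, against 101.3 in the cortex control. All 8 were lower with EG by 1 or more in cortex and 6 in outer medulla, against 12.7% and 9.68% of all probe sets. Median EG differences in cortex and outer medulla were -1.52 and -1.31 for the thick ascending limb, -0.94 and -1.12 for endothelium, -1.85 and -1.88 for red cell genes and -1.35 and 0.17 for podocytes. The 12 macrophage markers summed to 123.9 with EG and 93.8 in the cortex control, and to 130.2 with EG and 105.1 in the outer medulla control. The 8 fibroblast markers summed to 100.8 with EG and 80.4 in the cortex control. None of the 5 neutrophil markers on the array reached the filter on any array. The tubule injury gene Havcr1 stood at 17.05 with EG and 7.82 in the cortex control.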

How the data were processed

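Per the labels, 8 Clariom S arrays held RNA from 2 zones of rat kidney under 4 treatments. The authors deposited log2 values, computed with RMA per the submitters' processing notes. Base 2 was inferred from their range, 2.28 to 19.7, and the RMA version and settings are not given in the sources used here. No raw intensities were used, and the number of arrays limits the precision. Of 24834 probe sets, 1646 controls were left out. Of the 23188 others 15049 had 1 gene symbol in the platform annotation, none several and 8139 none. Entrez identifiers matched to RefSeq changed 0 symbols, and the probe set with the highest mean stood for each of 10 repeated symbols. The 13170 probe sets whose highest value reached 7.54, the median of the table, were tested without further normalization.

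limma 3.58.1 in R 4.3.3 was used with 2-sided p-values and Benjamini-Hochberg adjustment over all tested probe sets at 0.05. Zones were compared over 8 arrays with the treatment as a block, and EG and phlorizin over 4 profiles averaged over zones, since arrays of a treatment can share animals. Differences of single arrays carry no test and were counted from 1 on the log2 scale. The labels state no separate animals, so p-values measure only the spread between these arrays. Genes were named by a rule. Those called by limma or at least 1 apart between EG and control in either zone get their values, as do some others, and of the other pathway genes the 4 highest and 4 lowest. The 40 genes and all lists were chosen with earlier results of these data known. Alternatives covered normalization, filter, variance prior, unit of the fit and size. The fits were tested on simulated data. Python 3.11.15, pandas 2.3.3, numpy 2.4.6 and matplotlib 3.10.9 were used.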

Additional observations from a re-analysis of the deposited data

Results flagged for a closer look

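For 4 genes the EG difference lay above 0 on the outer medulla arrays and below 0 on the cortex arrays, with and without phlorizin. Outer medulla minus cortex was 3.64 for Nox4 (limma adjusted p = 0.196), 0.91 for Gpx1 (limma adjusted p = 0.422), 0.70 for Txn1 (0.508) and 0.68 for Txnrd1 (0.411), so the zone difference did not pass for these genes. For 2 genes the EG difference had one sign in both zones without phlorizin and the opposite sign in both zones with it. With minus without phlorizin it was -1.40 for Gstm1 and -1.01 for Sod3, where the cortex differences of Sod3 (-0.02 with and 0.32 without phlorizin) are small. The difference between phlorizin arms was not tested.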

How the results depend on the processing

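Of 114 recomputed counts of the 38 genes, 93 stayed within 1.5 times of the reported count. The zone counts lay between 3 and 5 higher and between 21 and 27 lower genes over all alternatives, and no single gene past a threshold reversed its direction under any alternative. For EG the limma counts of 0 higher and 0 lower became 1 and 1 with the 4 outer medulla arrays alone, 2 and 4 with the 8 arrays and the treatment as a random block, and 1 and 3 without the filter. The estimated correlation within a block was -0.10. Over all probe sets the EG counts went from 5 higher and 0 lower to 0 and 0 with quantile normalization, 2 and 0 with a robust variance prior, 73 and 13 with median centring, 47 and 12 with an intensity trend, 6 and 1 in cortex alone, 235 and 118 in outer medulla alone, 401 and 232 without the filter, and 830 and 862 with the random block. For EG minus control, the 5 genes lower in both zones became 2 with median centring and 2 with quantile normalization, and the 2 higher became 1 with the filter on the mean, which drops Mgst2. With a size of 0.5 these counts were 4 higher and 14 lower, with a size of 2 they were 1 and 0, and in the outer medulla alone, an alternative added after seeing the data that leaves out the cortex EG array, 5 were higher and 5 lower. For EG with phlorizin minus phlorizin, 1 higher and 0 lower became 2 and 4 at a size of 0.5, and 0 higher at 2. For EG with phlorizin minus EG, 0 higher and 1 lower became 2 and 3 at 0.5, 0 lower at 2, and 2 lower with quantile normalization. A lower or higher size changes these counts by construction, and no share of all probe sets was computed at those sizes. The cause of the other changes was not tested. The zone comparison has the treatment as its block, and EG and phlorizin, with 1 array per zone and treatment, have no replicate numbers to pair. Signal over background limits Nqo1 and Mgst2 in the cortex and Nox4 in the outer medulla.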

Other observations

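Other genes of redox defence were read after their values had been seen. Hmox1, heme oxygenase 1 and an NRF2 target, differed by 0.27 in cortex and by 2.12 in outer medulla between EG and control. In outer medulla it was near background without EG, at 6.35 in the control and 5.67 with phlorizin. It passed the filter on low values through arrays with EG alone, so its place among tested genes higher with EG follows in part from the filter. Glrx, a glutaredoxin that removes glutathione from proteins, differed by 1.12 in cortex and 3.96 in outer medulla. Neither passed the limma test for EG over both zones.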
